A study of Mus musculus with 9 samples.

Results

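Oncofetal genes are genes that are active in the embryo, are mostly silenced in adult tissue and come back in many carcinomas. The set described here holds 8 of the 18755 genes counted: the RNA-binding proteins Igf2bp1, Igf2bp2 and Igf2bp3, the chromatin proteins Hmga1 and Hmga2, the let-7 antagonist Lin28b, the growth factor Igf2 and its imprinted neighbor H19, a long noncoding RNA. They were found by their Entrez gene identifiers. They were chosen on measured values of the comparison described below, so their values are given as a description. Calls of the members by the test across all genes are printed, but nothing is read from these calls.

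RNA was sequenced from primary tumors of 4T1 cells, a mouse mammary carcinoma line of BALB/c origin that readily forms metastases. Female BALB/c mice of 6 to 10 weeks of age received 1000000 4T1 cells in the mammary fat pad, and treatment by daily oral gavage began on day 15 and lasted 5 days. The BI group (6 tumors, numbered 4 to 9) received 50 mg/kg of BI 853520, a small-molecule inhibitor of focal adhesion kinase (FAK), in 0.5% Natrosol (hydroxyethylcellulose), while the vehicle group (3 tumors, numbered 1 to 3) received 0.5% Natrosol alone. Each tumor came from a separate mouse and gave 1 library, all tumors derive from the same cell line, and the study kept only tumors with RNA of sufficient quality for analysis. Libraries held 21727879 to 33850245 counts in the vehicle group and 16931607 to 22349873 in the BI group, so that 1 count corresponded to between 0.0295 and 0.0580 counts per 1000000 counts of the library (CPM).

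The IGF2BP proteins bind messenger RNAs, many of them carrying N6-methyladenosine (m6A), and protect them from decay or steer where they are translated. Most genes of the set are tied together by the let-7 microRNAs, which rise as tissues differentiate and repress transcripts that carry a match to their seed in the 3′ UTR. LIN28 proteins block the maturation of let-7, and H19 RNA is known to bind let-7 as well. FAK is a cytoplasmic tyrosine kinase at integrin adhesions, and the comparison asks which transcripts differ in tumors of mice given its inhibitor.

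The let-7 family is shown because its shared seed, bases 2 to 8, is the sequence that its targets have in common. The RefSeq table lists 11 mature mouse sequences of the family, and 10 of them share the seed GAGGUAG, set in capitals here, while let-7j differs from it.
let-7a-5p: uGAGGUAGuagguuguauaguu
let-7g-5p: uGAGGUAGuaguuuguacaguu
miR-98-5p: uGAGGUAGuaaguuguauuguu

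The letters CTACCTC, the complement of that seed, were searched on the transcript strand of the longest annotated 3′ UTR of each gene (mm9). Igf2bp1, Hmga2 and Lin28b held 4 matches each, in UTRs of 6337, 3014 and 4445 bases. Igf2bp2, Igf2bp3 and Hmga1 held 1 match each, Igf2 held none in 3048 bases, and H19 is noncoding. Of 19915 annotated 3′ UTRs, 8.80% held at least 1 match and 0.0452% held 4 or more, so the members with 4 matches are rare in this respect. In Igf2bp1, 3 of the 4 matches are followed by an A, the letter that lengthens a let-7 site by 1 position. The matches of the IGF2BP family, with 15 bases before and 1 base after, read 5′ to 3′ with the match in capitals, all on the minus strand:
Igf2bp1, chr11:95823092-95823114: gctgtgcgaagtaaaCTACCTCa
Igf2bp1, chr11:95820671-95820693: cagcagtgctattaaCTACCTCa
Igf2bp1, chr11:95820077-95820099: gtataaatggatgaaCTACCTCa
Igf2bp1, chr11:95819454-95819476: acttttggttttaatCTACCTCt
Igf2bp2, chr16:22059546-22059568: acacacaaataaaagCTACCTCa
Igf2bp3, chr6:49036786-49036808: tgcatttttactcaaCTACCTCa

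A selection from the chromatin proteins and Lin28b is shown for comparison, with Hmga1 on the plus strand and the others on the minus strand:
Hmga1, chr17:27700222-27700244: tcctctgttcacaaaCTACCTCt
Hmga2, chr10:119801280-119801302: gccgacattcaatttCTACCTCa
Hmga2, chr10:119800043-119800065: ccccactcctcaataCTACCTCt
Lin28b, chr10:45100828-45100850: acccgggcgggaagtCTACCTCa

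A match of letters is a description and does not show that let-7 acts there.

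**Figure D1:**
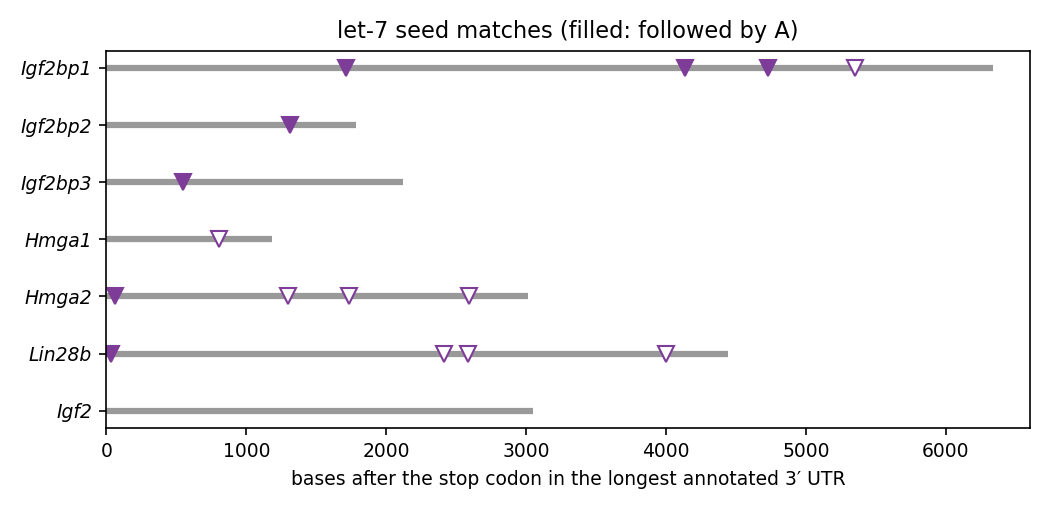
Positions of the let-7 seed matches (triangles, filled where followed by A) along the longest annotated 3′ UTR of each coding gene of the set, in bases after the stop codon. Igf2bp1, Hmga2 and Lin28b hold 4 matches each and Igf2 holds none.

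Within the set, 5 genes had lower transcript levels in BI tumors, 1 had higher levels, H19 overlapped widely between the groups and Lin28b was at or near 0. Igf2bp1 and Igf2 differed most among the genes that were lower, each by more than 4-fold, and Igf2bp3 was higher by 4.28-fold. Of the 8 genes, 7 passed the filter on low counts and entered the fit across all genes, and Lin28b did not. At an adjusted p of at most 0.05 (edgeR quasi-likelihood test, Benjamini-Hochberg over 13966 genes), 5 members were called lower, where 14.1% of all genes tested were called lower, and 1 was called higher, where 14.6% were. In 4 members every BI tumor lay below every vehicle tumor (14.0% of all genes tested), and in 1 every BI tumor lay above (14.1%). Since this contrast served to choose the members, nothing is read from these counts. In bulk tumors, fewer cells of a type and less RNA per cell cannot be told apart.

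**Figure D2:**
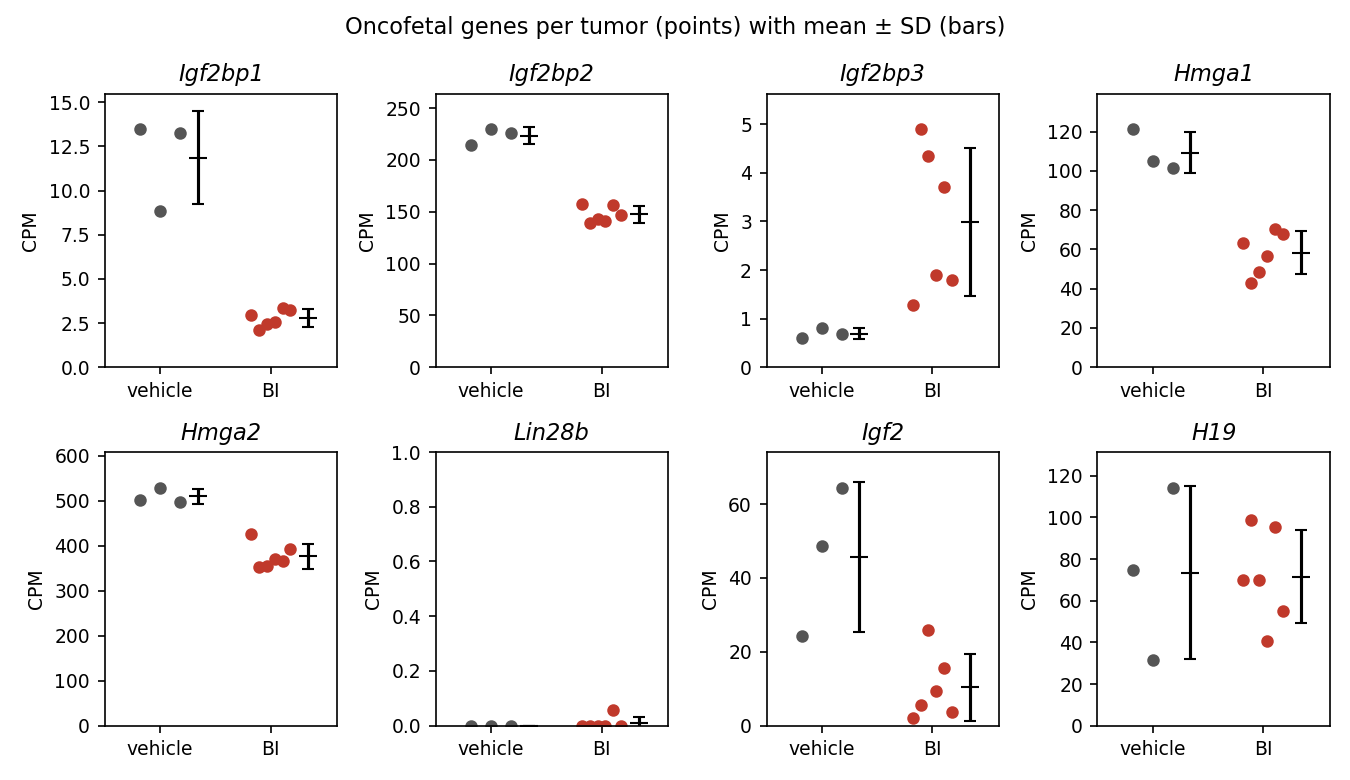
CPM of each oncofetal gene in each tumor (points; 3 vehicle, 6 BI), with the mean ± SD of the group beside them. Igf2bp1, Igf2bp2, Hmga1 and Hmga2 are lower in every BI tumor than in any vehicle tumor, Igf2bp3 is higher, and the groups overlap in Igf2 and H19.

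Igf2bp1 (Entrez gene 140486, chr11:95818477-95867254, minus strand), which is known to stabilize MYC messenger RNA and to be repressed in most adult tissues, was measured at 13.5, 8.85 and 13.3 CPM in vehicle tumors 1 to 3. In BI tumors it ranged from 2.08 to 3.37 CPM with a median of 2.75. The groups were far apart, since the lowest vehicle tumor lay well above the highest BI tumor. The mean was 11.9 ± 2.61 CPM (SD, n = 3) in vehicle and 2.77 ± 0.493 CPM (SD, n = 6) in BI tumors, a log2 fold change of -2.10 (SE 0.172), or 4.29-fold lower. These levels rest on 198 to 451 counts in vehicle and 40 to 62 counts in BI tumors. The microRNA gene Mir3063, annotated within Igf2bp1, had 1 to 4 counts in vehicle tumors and 0 counts in every BI tumor, which is too few for the fit.

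Igf2bp2 (Entrez gene 319765, chr16:22059082-22163372, minus strand) is the family member that stays active in adult tissue, where it binds transcripts of metabolism and of translation. It was measured at 214, 230 and 226 CPM in vehicle tumors 1 to 3 and from 139 to 158 CPM, with a median of 145, in BI tumors. It varied little within either group and the groups did not overlap. The log2 fold change was -0.60 (SE 0.0568), from 223 ± 8.24 to 147 ± 7.87 CPM, or 1.52-fold lower.

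Igf2bp3 (Entrez gene 140488, chr6:49035220-49164953, minus strand), a marker of aggressive human carcinomas, went the other way. It was measured at 0.596, 0.805 and 0.677 CPM in vehicle tumors 1 to 3. In BI tumors it ranged from 1.28 to 4.90 CPM with a median of 2.80, highest in tumors 5 and 6 and lowest in tumor 4. All BI tumors were above all vehicle tumors, but the BI tumors spread 3.84-fold among themselves. The log2 fold change was 2.10 (SE 0.457), from 0.693 ± 0.105 to 2.99 ± 1.52 CPM, on 13 to 23 counts in vehicle and 27 to 94 counts in BI tumors.

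Levels of the paralogs were set side by side per length, in CPM per kilobase of the deposited gene length (RPKM). Igf2bp2 made up 97.3 ± 0.545% of the summed RPKM of the family in vehicle and 97.4 ± 0.870% in BI tumors, and the sum itself was 58.8 ± 1.93 RPKM in vehicle and 38.8 ± 1.93 RPKM in BI tumors. The order of the minor paralogs changed: in vehicle tumors the level of Igf2bp1 was 9.20 ± 3.13 times that of Igf2bp3, and in BI tumors it was 0.636 ± 0.379 times. The ratio lay between 5.71 and 11.7 in vehicle and between 0.221 and 1.19 in BI tumors. Per length, tumor 4 was the only BI tumor with more Igf2bp1 than Igf2bp3, and tumor 9 was near a tie at 0.937. The order in single tumors depends on this scaling. In counts not divided by length, Igf2bp1 was also above Igf2bp3 in tumors 7 (57 against 42) and 9 (56 against 31). The higher level of Igf2bp3 in BI tumors, 0.687 RPKM, remained a small part of the family beside the 37.8 RPKM of Igf2bp2.

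**Figure D3:**
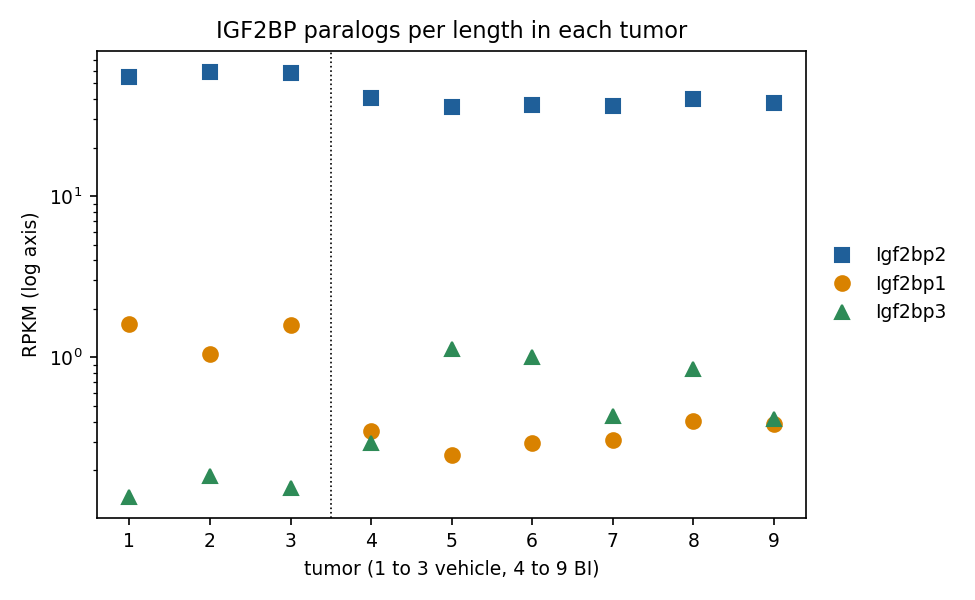
RPKM of the 3 IGF2BP paralogs in each tumor on a log axis, vehicle tumors 1 to 3 left and BI tumors 4 to 9 right of the dotted line. Igf2bp2 lies far above the others in all tumors. Per length, Igf2bp1 and Igf2bp3 exchange places in BI tumors other than tumor 4, with tumor 9 near a tie.

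Hmga2 (Entrez gene 15364, chr10:119798331-119913525, minus strand) binds the minor groove of AT-rich DNA through its AT-hooks and bends chromatin, and its messenger RNA is the textbook target of let-7. It was the most abundant member, with 502, 529 and 499 CPM in vehicle tumors 1 to 3 and 353 to 426 CPM, with a median of 369, in BI tumors. The groups did not overlap, although the shift was the smallest among the members that differed, with a log2 fold change of -0.43 (SE 0.0683). At 122 RPKM in vehicle tumors, it stood at percentile 96.5 of all genes tested, so that this embryonic gene is among the more abundant transcripts of 4T1 tumors. The row of its pseudogene Hmga2-ps1 did not go with it, at 32.2 ± 4.95 CPM in vehicle and 34.9 ± 4.55 CPM in BI tumors, and the groups overlapped there.

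Hmga1 (Entrez gene 15361, chr17:27693565-27700619, plus strand), the paralog of the same AT-hook family, was measured at 121, 105 and 102 CPM in vehicle tumors 1 to 3 and from 42.6 to 70.6 CPM, with a median of 60.1, in BI tumors. Every BI tumor lay below every vehicle tumor, and the log2 fold change was -0.91 (SE 0.136), or 1.88-fold lower. The row named Hmga1b held between 97.4% and 98.8% as many counts as Hmga1 in every tumor and had the same log2 fold change, so the rows appear to hold nearly the same reads and are not independent, and which of the copies the reads belong to is uncertain. Per length, Hmga2 stood at 2.30 ± 0.238 times Hmga1 in vehicle and at 3.25 ± 0.534 times in BI tumors. Only unique hits were kept, so reads that fit several places would be missing from the Hmga1 level, and their number is not known.

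Lin28b (Entrez gene 380669, chr10:45096426-45206201, minus strand), which keeps let-7 precursors from being processed, had 0 counts in 8 of 9 tumors and 1 count in BI tumor 8. A count of 0 allows up to 3 counts, that is between 0.0884 and 0.174 CPM in these libraries, so no fold change is given. Its paralog Lin28a, known from embryonic stem cells, had 3 to 4 counts in vehicle and 0 to 2 counts in BI tumors, and it did not pass the filter either. LIN28 transcripts were therefore at or near this floor in tumors in which Hmga2 and Igf2bp2 were abundant.

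Igf2 (Entrez gene 16002, chr7:149836673-149852721, minus strand) encodes the fetal growth factor that signals through the IGF1 and insulin receptors. It was measured at 24.1, 48.6 and 64.4 CPM in vehicle tumors 1 to 3. In BI tumors it ranged from 2.08 to 26.0 CPM with a median of 7.49. In 5 of 6 BI tumors it was below every vehicle tumor, while BI tumor 6 lay above vehicle tumor 1, so the groups overlapped. The mean was 45.7 ± 20.3 CPM in vehicle and 10.4 ± 9.06 CPM in BI tumors, with a log2 fold change of -2.14 (SE 0.555). It spread over a 12.5-fold range among BI tumors, and the log2 fold change was -1.81 without vehicle tumor 3 (there the edgeR call of Igf2 was lost) and -2.67 without BI tumor 6. The row of the antisense gene Igf2os, which overlaps Igf2, showed 2.85 ± 1.32 CPM in vehicle and 0.576 ± 0.297 CPM in BI tumors. Whether counting used the strand was not given in the sources used here, so reads of the pair cannot be told apart.

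H19 (Entrez gene 14955, chr7:149761434-149764048, minus strand), expressed from the maternal allele of the imprinted domain that it shares with the paternally expressed Igf2, was measured at 74.9, 31.5 and 114 CPM in vehicle tumors 1 to 3. In BI tumors it ranged from 40.5 to 98.7 CPM with a median of 69.9. The vehicle tumors enclosed all BI tumors, and the means of 73.6 ± 41.4 and 71.6 ± 22.5 CPM differed by far less than the spread within either group (log2 fold change -0.05, SE 0.339). Vehicle tumors 2 and 3 pulled in opposite directions, with a log2 fold change of -0.41 without tumor 2 and of 0.43 without tumor 3. Mir675, the microRNA gene inside H19, also overlapped between the groups, at 0.723 ± 0.252 and 0.598 ± 0.216 CPM. The neighbors thus had different profiles: the level of H19 per length was 2.98 ± 1.99 times that of Igf2 in vehicle tumors, between 1.05 and 5.02, and 21.5 ± 18.9 times in BI tumors, between 4.36 and 54.5.

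Ordered by level per length in vehicle tumors, Hmga2 came first at 122 RPKM, followed by Igf2bp2 at 57.3 and Hmga1 at 53.4, which overlapped over the tumors. H19 at 28.1 and Igf2 at 10.8 RPKM also overlapped, and Igf2bp1 at 1.42 RPKM, Igf2bp3 at 0.159 RPKM and Lin28b at 0 were well apart. In BI tumors Hmga2 led at 90.3 RPKM and Igf2bp2 followed at 37.8. Hmga1 at 28.5 and H19 at 27.4 RPKM overlapped next, and Igf2 at 2.45 RPKM overlapped with Igf2bp3 at 0.687, which in turn overlapped with Igf2bp1 at 0.331.

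The genes with the profiles nearest to each member were sought among genes with a mean log2 CPM of at least 1, by the mean absolute difference of centered log2 CPM over the 9 tumors. For Igf2bp1 these were Csf3, the granulocyte colony-stimulating factor G-CSF (0.184 log2 units), Msln, the carcinoma surface antigen mesothelin (0.197), Amotl2, an angiomotin of cell junctions (0.231), Ankrd1, a known YAP target (0.270), and Itga7, a laminin-binding integrin (0.270). All of them were lower in every BI tumor, with Csf3 going from 27.2 ± 2.86 to 7.61 ± 1.58 CPM and Msln from 57.2 ± 2.32 to 17.2 ± 2.84 CPM. Nearest to Igf2bp2 were Gfod1 (0.0481), the glycogen synthase gene Gys1 (0.0507) and the mitochondrial NAD kinase gene Nadk2 (0.0509), and nearest to Hmga2 were Sccpdh (0.0481), the ER-phagy receptor gene Retreg1 (0.0495) and the kinase gene Oxsr1 (0.0504). Apart from Hmga1b, whose row may hold the same reads, Hmga1 was nearest to Ppp1r13l (0.0726), which encodes an inhibitor of p53, and to the cytokinesis gene Anln (0.0910). Igf2bp3 was nearest to Hsd11b1 (0.292), which encodes an enzyme that activates glucocorticoids, to the fibroblast gene Pi16 (0.326) and to Tox2 (0.329). Igf2 had no close neighbor, since Cxcl5, a neutrophil-attracting chemokine, was nearest at 0.741 log2 units, followed by Gpnmb, a glycoprotein of macrophages and tumor cells, at 0.799 and Ptgs2, the inducible cyclooxygenase gene, at 0.800. H19 was nearest to Shroom2 (0.252), Vegfc (0.281) and Kctd12b (0.287).

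Around the members, 7 lists of genes of the same pathways were counted, with the members left out. Over all lists, 6 genes were called higher and 17 lower in BI tumors by the edgeR test, with a gene of several lists counted once. The lists were chosen with earlier results of these data known, so nothing is read from these totals. Per list, the shares called are given beside the 14.6% higher and 14.1% lower of all genes tested, whose median log2 fold change was -0.0037. Where a count by another rule is given for a list, it is to be read against the share of all genes by that rule. At an unadjusted p of at most 0.05 these shares were 20.5% higher and 20.3% lower. DESeq2 called 16.4% higher and 15.4% lower, and limma-voom called 14.5% higher and 15.0% lower. The cutoffs of the study (unadjusted p of at most 0.05 and a fold of at least 1.5) left 9.57% higher and 3.57% lower.

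Of 13 tested genes of IGF ligands, receptors and binding proteins, 1 rose and 3 fell, or 7.69% and 23.1%, with a median log2 fold change of -0.17. Igf1, the ligand that acts on the same receptor as Igf2, rose from 12.4 ± 6.78 to 45.7 ± 25.1 CPM (log2 fold change 1.86, SE 0.473, edgeR adjusted p = 0.0125), with 5 of 6 BI tumors above all vehicle tumors. Igf2 lay below all vehicle tumors in 5 of 6 BI tumors, but these are separate counts, and whether the same tumors are meant was not examined. The call of Igf1 was lost without vehicle tumor 1 (edgeR adjusted p = 0.0598) or 2 (0.0547). Irs1, the adaptor that links the receptors to PI3K, fell from 25.3 ± 4.76 to 12.8 ± 2.39 CPM in all 6 tumors (log2 fold change -0.98, SE 0.152, edgeR adjusted p = 0.000715). Igfbp7, a secreted protein of low affinity for IGFs, fell from 279 ± 24.3 to 170 ± 32.1 CPM (log2 fold change -0.72, SE 0.141, edgeR adjusted p = 0.00305). The insulin receptor gene Insr was lower by 0.29 on the log2 scale (edgeR adjusted p = 0.0306), a call that was lost when any 1 of the vehicle tumors or BI tumor 4, 6, 8 or 9 was left out (edgeR adjusted p from 0.0510 to 0.103). Igfbp4, the most abundant gene of the list, was at 3242 ± 251 and 3523 ± 424 CPM (edgeR adjusted p = 0.439).

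Among 15 tested genes of LIN28 function and let-7 processing, 1 rose and 3 fell (6.67% and 20.0%), with a median of -0.04. Ago4, an Argonaute that carries microRNAs, rose from 4.10 ± 0.0597 to 7.44 ± 0.975 CPM in all BI tumors (log2 fold change 0.86, SE 0.139, edgeR adjusted p = 0.000914). Hnrnpa1, which binds the let-7a precursor, fell by 0.36 (edgeR adjusted p = 0.000803), Drosha, the nuclear RNase of microRNA processing, fell by 0.24 (0.0114), and Khsrp, a promoter of let-7 maturation, fell by 0.23 on the log2 scale (0.0288). The calls of Drosha and Khsrp were lost without single vehicle tumors (edgeR adjusted p = 0.0673 for Drosha without tumor 3, and 0.114 for Khsrp without tumor 1), that of Khsrp also without vehicle tumor 2 (0.104) or BI tumor 9 (0.0524). Mature let-7 is not measured by poly(A) libraries.

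Of 16 tested let-7 target genes, 2 rose and 5 fell (12.5% and 31.2%), with a median of -0.08. Among the genes that fell were drivers of the cell cycle and of growth. Cdk6, the kinase of the G1 phase, went from 61.9 ± 3.80 to 41.8 ± 3.54 CPM (log2 fold change -0.57, edgeR adjusted p = 0.000283). Myc, a transcription factor of cell growth, fell from 158 ± 2.53 to 111 ± 14.7 CPM (log2 fold change -0.51, edgeR adjusted p = 0.00229), and Il6, a cytokine, from 2.49 ± 0.186 to 1.33 ± 0.358 CPM (log2 fold change -0.91, edgeR adjusted p = 0.0131). Cyclin D1 (Ccnd1), the most abundant, fell from 1490 ± 91.2 to 1050 ± 188 CPM (edgeR adjusted p = 0.0165), lost without vehicle tumor 1 (0.0709) or 3 (0.0538), and Il6 was lost without vehicle tumor 3 (0.0565). Cyclin D2 (Ccnd2) went the other way, by 0.34 (edgeR adjusted p = 0.0372), as did the transcription factor gene Arid3b by 0.49 (0.0217), and both calls were lost without vehicle tumor 3 (0.0658 and 0.111), that of Ccnd2 also without vehicle tumor 2 (0.165) or BI tumor 7 (0.0634) or 9 (0.0616). Without vehicle tumor 1 or 3, 3 and 2 genes of the list were lower, and without vehicle tumor 2 or 3, or BI tumor 7 or 9, 0 or 1 were higher. The list holds genes known as let-7 targets and was not built on the letters searched above: Cdk6, Myc, Il6, Ccnd1 and Ccnd2 held 0 matches in their longest annotated 3′ UTRs, whereas Arid3b and Cdc25a held 1 each. Only the letters CTACCTC in the annotated UTR were counted, so 0 matches do not show that a transcript lacks let-7 sites. Cdc25a, a phosphatase that activates cyclin-dependent kinases, was also called lower (log2 fold change -0.31, edgeR adjusted p = 0.0464), and this call was lost when any 1 tumor other than BI tumor 8 was left out (0.0520 to 0.179), with library size normalization (0.0585) and with the filter of at least 1 CPM in 3 tumors (0.0545).

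The 11853 of 13966 tested genes that have an annotated 3′ UTR were also grouped by their number of seed matches, as a description, and the other genes were left out. Among tested genes other than the members, the 10587 with no match had a median log2 fold change of -0.0064, with 14.9% higher and 14.5% lower. The 1109 genes with 1 match had a median of 0.02, with 17.8% higher and 13.1% lower, and the 133 with a pair of matches had a median of 0.04, with 16.5% higher and 15.8% lower. Of 18 genes with 3 or more, 1 was higher and 2 were lower. Nr6a1, a nuclear receptor of embryos and germ cells with 8 matches, was at a log2 fold change of 0.22 (edgeR adjusted p = 0.403). UTR length also rises over these classes, from a median of 1059 bases with no match to 4273.5 bases with 3 or more, and its part was not tested.

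The list of transcripts known to be bound by IGF2BP proteins had 9 tested genes, of which 1 rose and 2 fell (11.1% and 22.2%), with a median of 0.06. Mapt, the tau gene, fell from 9.82 ± 0.706 to 4.45 ± 1.24 CPM (log2 fold change -1.14, SE 0.205, edgeR adjusted p = 0.00181), and Myc, which stands in this list too, fell as above. Actb, the transcript in which zipcode binding by Igf2bp1 was described, was at 4407 ± 469 and 5000 ± 401 CPM (edgeR adjusted p = 0.182).

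Among 15 m6A writers, erasers and readers, 4 fell (26.7%), with a median of -0.10. None rose by edgeR at the adjusted threshold, at an unadjusted p of at most 0.05, by DESeq2 or by limma-voom, which all gave 0. The shifts were small: Mettl14, the partner of the methyltransferase, fell by 0.31 (edgeR adjusted p = 0.0187), the demethylase gene Alkbh5 by 0.22 (0.0207), the writer subunit gene Zc3h13 by 0.18 (0.0266) and the nuclear reader gene Ythdc1 by 0.22 on the log2 scale (0.0281). Each of these calls was lost without at least 1 of the vehicle tumors, those of Zc3h13 and Ythdc1 also without BI tumor 7 or 8, and 1 or 2 genes of the list were lower when any vehicle tumor or BI tumor 7 or 8 was left out.

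The imprinted genes of the H19 and Igf2 network had 16 tested members, of which 1 rose and 1 fell (6.25% each), with a median of 0.26. Without BI tumor 6, 3 were higher, and without vehicle tumor 2, 2 were. Peg3, a paternally expressed zinc finger gene, rose from 3.06 ± 0.872 to 8.48 ± 3.07 CPM in all 6 BI tumors (log2 fold change 1.49, SE 0.309, edgeR adjusted p = 0.00411). Phlda2, a maternally expressed growth restrictor of the placenta, fell from 0.618 ± 0.0732 to 0.205 ± 0.121 CPM (edgeR adjusted p = 0.0215), at levels of few counts, and the call was lost without vehicle tumor 1 (0.0631) or 3 (0.0857). Cd81, most abundant of the list per length, was at 332 ± 8.37 and 338 ± 29.6 CPM.

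Other oncofetal and embryonic genes, such as Afp, Gpc3 and Sall4, did not pass the test: of 10 tested, 0 were called higher and 0 lower by edgeR. At an unadjusted p of at most 0.05 there were 1 higher and 2 lower, a share no larger than that of all genes, DESeq2 called 0 and limma-voom called 2 lower. Afp, the fetal albumin-like serum protein, had a log2 fold change of -0.51 (SE 0.205, edgeR adjusted p = 0.0842), and Tpbg, the oncofetal antigen 5T4 and most abundant of the list, was at 129 ± 2.11 and 120 ± 13.2 CPM (edgeR adjusted p = 0.391).

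**Figure D4:**
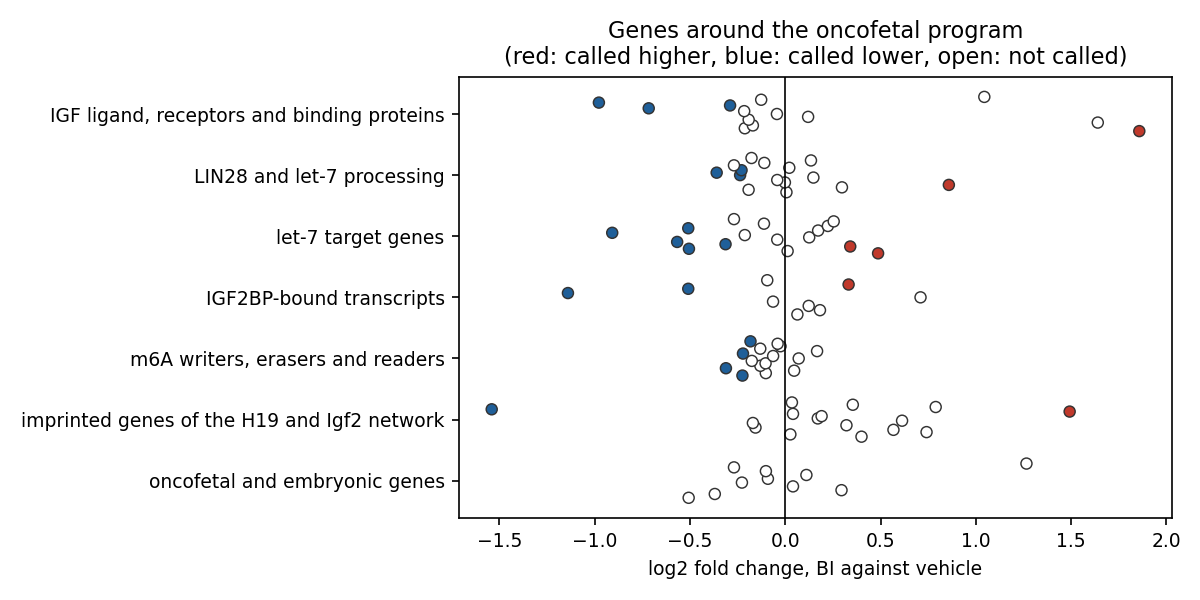
Log2 fold change (BI against vehicle) of each tested gene in 7 lists around the oncofetal genes, red where called higher, blue where called lower and open where not called by edgeR at an adjusted p of at most 0.05. Most genes are open circles near 0, and the oncofetal and embryonic list holds no called gene.

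Markers of the cell types that a tumor can hold were counted in the same way, beside the 14.6% higher and 14.1% lower of all genes tested. Krt8 and Krt18, keratins of the simple epithelium from which 4T1 derives, were abundant, whereas Epcam was at 2.13 CPM and Cdh1, the E-cadherin gene, at 19.2 CPM in vehicle tumors, and no marker of any list was at 0 counts over all tumors. Krt18 fell from 578 ± 57.7 to 409 ± 58.3 CPM (log2 fold change -0.50, edgeR adjusted p = 0.00636), and Krt8 from 478 ± 58.3 to 394 ± 38.4 CPM (edgeR adjusted p = 0.0444), so that 2 of 12 epithelial markers (16.7%) fell, a share near that of all genes, and none rose (edgeR, with 2 higher at an unadjusted p of at most 0.05, 1 by DESeq2 and 0 by limma-voom). The call of Krt8 was lost without vehicle tumor 1 (edgeR adjusted p = 0.138) or 2 (0.195), without BI tumor 6, 7, 8 or 9 (0.0651 to 0.0844) and with the filter of at least 1 CPM in 3 tumors (0.0523). Summed, the epithelial markers were at 1095 ± 115 CPM in vehicle and 847 ± 94.0 CPM in BI tumors, but Krt8 and Krt18 made up 96.5% of that sum in vehicle tumors. The other 10 markers summed to 38.8 ± 2.66 CPM in vehicle and 44.3 ± 15.6 CPM in BI tumors, with log2 fold changes above 0 in 7 and below 0 in 3, none of them called, and the median over all 12 was 0.13.

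Of 11 leukocyte markers, 8 rose (72.7%), among them the macrophage genes Csf1r, from 230 ± 16.5 to 431 ± 39.6 CPM (edgeR adjusted p = 4e-05), and Adgre1 (4.52e-05) and the T cell gene Cd3e (8.58e-05). Only S100a8, the neutrophil alarmin and most abundant of the list per length in vehicle tumors (388 RPKM), fell, from 152 ± 27.5 to 63.6 ± 16.0 CPM (edgeR adjusted p = 0.000582), and at 162 RPKM in BI tumors it stood below Cd68 at 218 RPKM. The leukocyte sum was 1226 ± 65.6 CPM in vehicle and 1821 ± 115 CPM in BI tumors, and all 6 BI tumors lay above the vehicle tumors. Fibroblast markers summed to 2687 ± 871 and 4741 ± 1359 CPM, with Thy1 and Col1a2 called higher of 10 (20.0%; 5 at an unadjusted p of at most 0.05, beside 20.5% of all genes, 2 by DESeq2 and 3 by limma-voom), and endothelial markers to 185 ± 15.3 and 238 ± 32.6 CPM, with Kdr, Tie1 and Cdh5 called higher of 7 (42.9%; 6 at an unadjusted p of at most 0.05, 5 by DESeq2 and 3 by limma-voom). Adipocyte markers summed to 50.2 ± 12.1 and 112 ± 77.9 CPM, with Pparg called higher of 6 (16.7%; 2 at an unadjusted p of at most 0.05, and 1 each by DESeq2 and limma-voom). Skeletal muscle markers summed to 11.2 ± 7.24 and 9.73 ± 4.64 CPM, with none of 6 called by edgeR, at an unadjusted p of at most 0.05, by DESeq2 or by limma-voom. The most abundant genes of these lists per length did not pass the edgeR test. The collagen gene Col1a1 was at 631 ± 272 CPM in vehicle and 1229.5 ± 462 CPM in BI tumors (edgeR adjusted p = 0.0538). The endothelial adhesion gene Pecam1 was at 79.9 ± 7.07 and 101 ± 15.7 CPM (edgeR adjusted p = 0.0532). The fatty acid carrier gene Fabp4 was at 38.7 ± 9.20 and 88.0 ± 63.4 CPM (edgeR adjusted p = 0.0737). The troponin gene Tnnt3 had means of 5.38 and 3.96 CPM (log2 fold change -0.45, SE 0.234, edgeR adjusted p = 0.172). Col1a1 was called higher with no filter (0.0432), by limma-voom (0.0479) and without vehicle tumor 3 or BI tumor 5 or 6. Pecam1 was called higher by DESeq2 (0.0264), with the filter of at least 1 CPM in 3 tumors (0.0464) and without BI tumor 6 or 8, and Fabp4 without BI tumor 6 (0.0395). The calls of Col1a2, Thy1, Cdh5, Kdr, Tie1 and Pparg were each lost without at least 1 of the vehicle tumors, that of Col1a2 also without BI tumor 4, 7, 8 or 9.

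Of 12 proliferation genes, 5 fell (41.7%), with 8 at an unadjusted p of at most 0.05 (20.3% of all genes), 6 by DESeq2 and 5 by limma-voom, led by Top2a, from 1022 ± 154 to 667 ± 90.4 CPM (edgeR adjusted p = 0.00322), Bub1 (0.00914) and Aurka (0.0174), and their sum went from 2590 ± 399 to 1924 ± 269 CPM. The calls of Bub1 and Aurka were lost without vehicle tumor 1 (edgeR adjusted p = 0.0517 and 0.0766) or 3 (0.0519 and 0.0796).

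The part of these shifts in marker genes in the levels of the oncofetal genes was not tested.

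**Figure D5:**
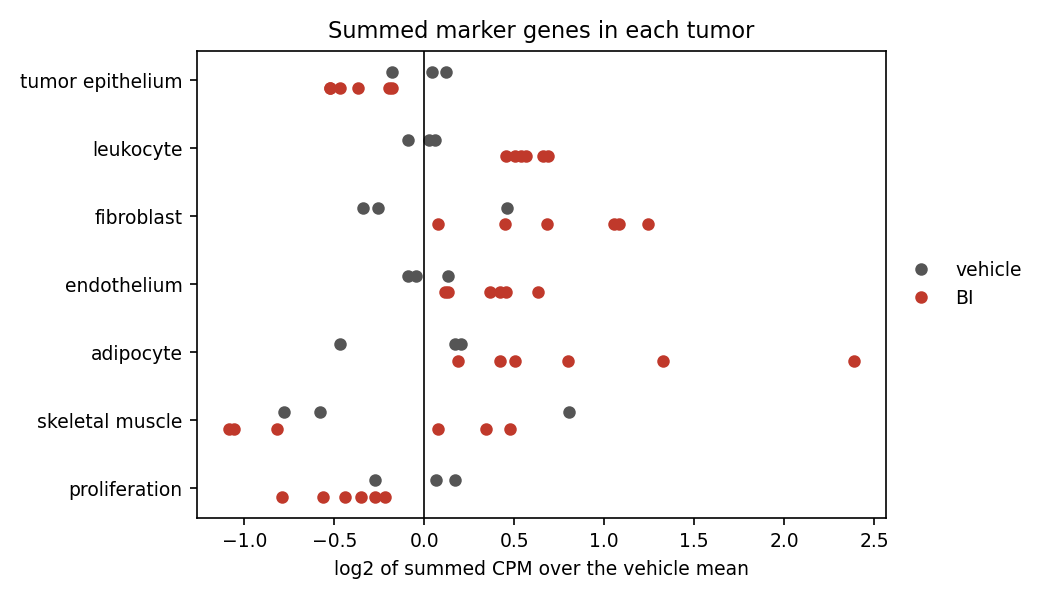
Summed CPM of the marker genes of each cell type in each tumor, as log2 of the ratio to the vehicle mean (grey vehicle, red BI). Leukocyte sums lie above all vehicle tumors in every BI tumor, and epithelial sums, 96.5% of which are Krt8 and Krt18 in vehicle tumors, and proliferation sums lie below in 5 of 6.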

How the data were processed

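RNA of snap-frozen 4T1 tumor pieces was made into stranded poly(A) libraries and sequenced in paired ends. The authors mapped reads to mm9 with STAR, kept unique hits, and counted reads per RefSeq gene with QuasR, and they deposited raw counts and a gene length in bases (another kind of value, used only for RPKM). Of 18755 genes, 18700 matched a RefSeq symbol by Entrez identifier. Counts of all 9 tumors were fitted with edgeR 4.0.16 (R 4.3.3; TMM factors 0.984 to 1.02, filterByExpr with a minimum count of 10, quasi-likelihood F test), with BI against vehicle as the only term, and genes were called where the p-value, adjusted by Benjamini-Hochberg over 13966 genes, did not exceed 0.05. The study had used edgeR with an unadjusted cutoff and a fold of 1.5, tried here as an alternative. The others were RLE or library size normalization, no filter, at least 1 CPM in 3 tumors, DESeq2 1.42.0, limma-voom (limma 3.58.1), leaving out each tumor, and a prior count of 0.5 in place of 2 for nearest profiles.

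The members and lists were chosen with earlier results of these data known. Named were all members, up to 3 called genes per list and direction with the smallest p, the most abundant gene per length of each list, and the 5 (Igf2bp1) or 3 nearest profiles. Nr6a1 (most seed matches), and Cdc25a, Afp, Gpc3, Sall4, Epcam, Cdh1, Cd68 and the rows that overlap or resemble a member were named outside this rule after their values were seen. Values are CPM from counts and TMM; coordinates are from the mm9 annotation. Replicates are tumors of separate mice; no batch is given. Floors cover counting error only. A gene of the lists that the rule names is not reported here.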

Additional observations from a re-analysis of the deposited data

Results flagged for a closer look

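Among 52 named genes looked at for a single BI tumor far from the other 5, 1 was found. Fabp4, a fatty acid carrier of adipocytes, was at 210 CPM in BI replicate 9, while the next highest BI tumor was at 102 CPM and the lowest at 41.0 CPM. Chance alone gives such a gap in about 1 of 20 groups. The same tumor had the highest sum of adipocyte markers, Fabp4 included, 263 CPM. None of the oncofetal genes that passed the filter on low counts had such a tumor, and Lin28b had too few counts to be judged.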

How the results depend on the processing

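No paired analysis was made, because each tumor came from a separate mouse and the labels give no pairing. Under the cutoffs of the study (unadjusted p of at most 0.05 and a fold of at least 1.5), 1337 genes were higher and 498 lower, against 2040 and 1973, and 5 genes of the pathway lists were lower, against 17. By list, these cutoffs left 1 let-7 target lower and 0 higher, 0 lower among the LIN28 and m6A genes and 1 lower among the IGF2BP-bound transcripts. The IGF and imprinted lists had 2 higher each, and the oncofetal list had 1 higher. Leaving out 1 tumor at a time gave between 1332 and 2026 genes higher and between 1172 and 1980 lower, with the lowest counts without vehicle replicate 3, where the BI group is compared with 2 tumors. Lower calls numbered 1289 without vehicle replicate 1. Over the pathway lists, 5 to 9 genes were higher and 9 to 17 lower, with 9 lower without vehicle replicate 1 or 3 and 11 without replicate 2; fewer samples entered these fits. The IGF list had 2 higher without vehicle replicate 3 or BI replicate 5, the IGF2BP-bound list 2 higher without BI replicate 6, and the oncofetal list 1 higher without BI replicate 5 and 1 lower without BI replicate 8. Normalization, filters, DESeq2 and limma-voom kept the counts over all genes and over all pathway lists together within 1.5 times. Single lists moved by 1 or 2 genes: the IGF list had 2 higher, against 1, with the filter of 1 CPM and by DESeq2, the imprinted list 0 lower with that filter and 2 by DESeq2, against 1, and the oncofetal list 2 lower by limma-voom, against 0. The log2 fold changes of the members that were called kept their sign in every alternative: Igf2bp1 between -2.27 and -2.00, Igf2bp2 between -0.63 and -0.58, Igf2bp3 between 1.90 and 2.26, Hmga1 between -0.96 and -0.83, Hmga2 between -0.47 and -0.41 and Igf2 between -2.67 and -1.81. These fits use the same tumors on which the members were chosen, so the kept sign is no independent support. Under the cutoffs of the study, which 9.57% of all genes passed as higher and 3.57% as lower, 1 member was higher and 4 were lower, and Hmga2, below a fold of 1.5, was not among them; the members were chosen on this contrast, so nothing is read from the count. H19 was not called and lay on either side of 0, between -0.41 and 0.43. With the smaller prior count, the genes nearest to each member were shared, except that 2 of 3 were shared for Igf2bp3. With 3 vehicle tumors the design is small, and Lin28b, Lin28a and Mir3063 are limited by depth.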
